A study of Mus musculus with 6 samples.

Results

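The Ifi200 or PYHIN family of interferon-inducible genes was examined in the brains of mice after systemic LPS challenge. The members considered were Ifi203, Ifi204, Ifi205, Ifi207, Mnda, Mndal and Aim2, and a transcript cluster of the array was included if its annotation named any of these 7 genes, alone or together with another gene, by current or older symbol. A transcript cluster groups the probes that read one locus. By gene identifier, 6 of the 7 genes were found in 5 of 35556 clusters. Ifi203, Ifi205, Ifi207 and Aim2 are each named alone. Ifi204 and Mnda, whose current symbol is Ifi211, share 1 cluster, so that their signals cannot be told apart. No cluster names Mndal by its identifier. Mndal is also listed as an older symbol of Ifi203, so the cluster given here as Ifi203 is the one that symbol leads to. The LPS-treated group held 3 male C57BL/6 mice given 4 mg/kg Escherichia coli LPS intraperitoneally, and the vehicle-treated controls were 3 male C57BL/6 mice given PBS by the same route. The mice, 7 to 8 weeks old at purchase, were of wild type genotype and were taken 48 hours after injection. RNA of each whole brain was hybridized to its own Affymetrix array (Mouse Gene 1.0 ST), and according to the methods the brains were perfused with PBS beforehand. Expression is given on the log2 scale as normalized by the robust multichip average (RMA), and a difference of 1 is a 2-fold change.

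PYHIN proteins combine a pyrin domain, which binds other pyrin domains, with HIN domains, which bind DNA, although some members have only 1 of the 2 kinds. AIM2 senses double-stranded DNA in the cytosol and recruits the adaptor ASC, encoded by Pycard, to activate caspase-1 in an inflammasome. The mouse p200 proteins, such as p204 encoded by Ifi204, were first known as products of interferon-induced genes and act in the nucleus and cytosol on transcription, proliferation and the response to DNA. Type I interferons act through the factor ISGF3, which contains STAT2 and IRF9 and binds an interferon-stimulated response element (ISRE) in target promoters.

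The family is a gene cluster, and 14 annotated genes of it, members and others, lie within 682 kb of chromosome 1 in GRCm38.p6, between 173349547 and 174031755. Aim2 lies at one end, from 173349547 to 173466040, and Ifi205 at the other, from 174011998 to 174031755. Between them lie Ifi207 (173723424 to 173741831), Ifi204 (173747293 to 173767069), Mndal (173857215 to 173880382), Ifi211 (173896339 to 173913087) and Ifi203 (173920400 to 173942866). Promoter sequences from RefSeq, build GRCm38.p6, were read for 6 of the 7 members, from 250 bases before a transcription start to 50 bases after it. Ifi204 had no entry. They are shown because several promoters of this family share a run of letters of the ISRE type. The letters searched were GAAANNGAAA on both strands, which 3.44% of 32851 promoters of the same length hold. Of the 6 members read, Ifi203, Ifi205, Ifi207, Ifi211 and Mndal held a match and Aim2 did not. The match began 41 bases before the start in Ifi207, 37 in Ifi211, 35 in Ifi203, 36 in Mndal and 134 in Ifi205. Ifi203 and Mndal have 2 annotated starts each. Only the second promoter of Ifi203 holds a match, while the second promoter of Mndal holds a further match, on the other strand. Ifi205 holds a further match downstream of its start. In the 60 bases below, read 5′ to 3′ along each gene, capitals mark the match.
Ifi207 (chr1:173741831-173741890, minus strand): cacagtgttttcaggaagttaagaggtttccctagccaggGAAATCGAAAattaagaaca
Ifi211 (chr1:173913064-173913123, minus strand): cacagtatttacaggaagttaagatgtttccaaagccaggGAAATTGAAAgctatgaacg
Ifi205 (chr1:174031870-174031929, minus strand): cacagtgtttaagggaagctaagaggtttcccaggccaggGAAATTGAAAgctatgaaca
Ifi203 (chr1:173942508-173942567, minus strand): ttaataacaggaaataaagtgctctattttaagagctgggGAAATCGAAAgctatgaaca
Mndal (chr1:173880204-173880263, minus strand): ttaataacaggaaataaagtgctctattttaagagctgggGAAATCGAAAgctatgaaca
For Aim2 only 1 start was read. It lies inside the annotated span of the gene, and the sequence before 173349547 was not read. For contrast, the 100 bases before that start, which hold no match, read as follows.
Aim2 (chr1:173420504-173420603, plus strand): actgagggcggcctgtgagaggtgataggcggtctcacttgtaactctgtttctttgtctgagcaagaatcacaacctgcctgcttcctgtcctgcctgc
The 60 bases of Ifi203 and Mndal were identical in all 60 positions. Those of Ifi205 and Ifi211 were equal in 52 of 60, and those of Ifi207 were equal to those of each of these genes in 50 of 60. The 10 letters GAAATCGAAA, found in Ifi203, Ifi207 and Mndal, occurred in 16 of the 32851 promoters, and 7 of these 16 belong to genes of this family. The other 4 are those of Ifi206, Ifi208, Ifi213 and Ifi214, of which Ifi208 and Ifi214 are shown.
Ifi208 (chr1:173673567-173673626, plus strand): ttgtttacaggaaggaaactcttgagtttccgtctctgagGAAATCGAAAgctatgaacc
Ifi214 (chr1:173536017-173536076, minus strand): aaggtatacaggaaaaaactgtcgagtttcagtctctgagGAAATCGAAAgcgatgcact
Ifi205 and Ifi211 hold GAAATTGAAA in its place, which 0.116% of all promoters hold. A second motif, TTCNNNGAA, of the gamma-interferon activated site type, was in none of the 6 members, in Ifi202b among the other family genes, and in 8.3% of all promoters. Among the other family genes the windows of Ifi206, Ifi208 and Ifi213 were equal to each other in 58 or 59 of 60 bases. Whether probes of one family gene also bind transcripts of another was not tested. Such matches describe the letters of these windows and are not evidence of binding.

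Every member cluster had all 3 LPS-treated mice above all 3 controls. The increases of Ifi207, of the cluster shared by Ifi204 and Ifi211, and of Aim2 passed the test, whereas those of Ifi203 and Ifi205 did not. The test was limma over all 35556 clusters, with Benjamini-Hochberg adjusted p under 0.05 as the threshold. Thus 3 of 5 member clusters were called higher and none lower, against 0.652% of all clusters called higher and 0.0619% called lower. In 9.73% of all clusters the 3 LPS arrays lay above the 3 PBS arrays. The median log2 fold change was 1.09 over the 5 member clusters and -0.000925 over all clusters. An exact permutation test of 3 mice against 3 (two-sided) cannot go below p = 0.1, and all 5 member clusters reached that p. The source tissue was whole brain, and more cells that express a gene cannot be told apart from more RNA per cell.

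**Figure D1:**
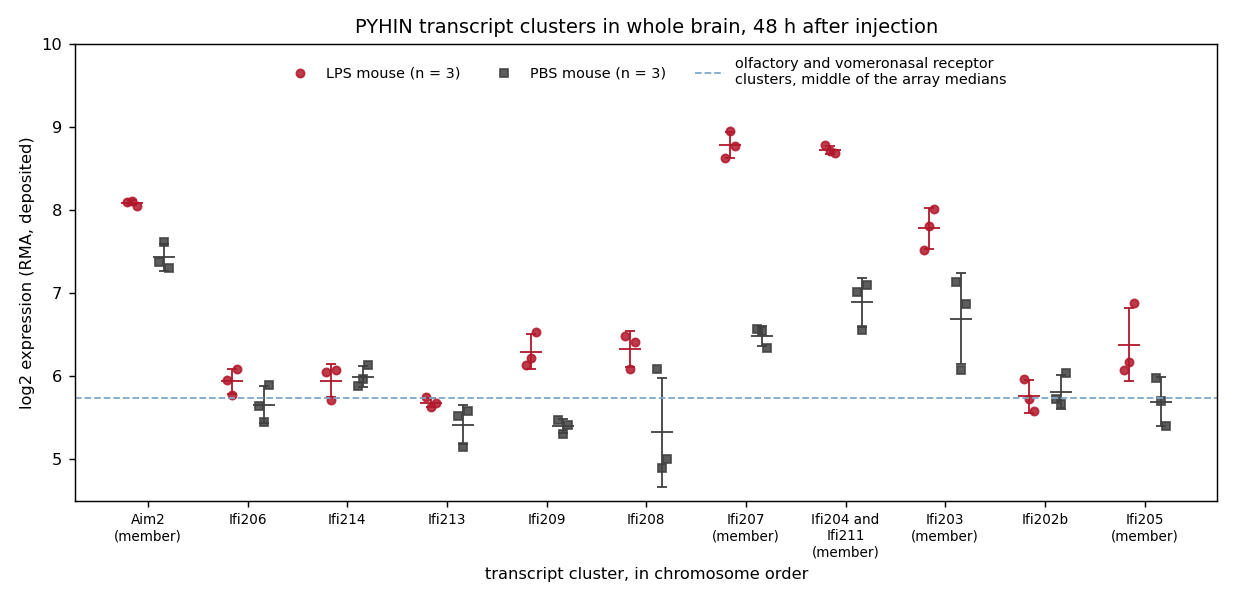
Log2 expression of the 11 PYHIN transcript clusters in chromosome order, with 1 symbol per mouse (circles for LPS, squares for PBS), and a horizontal tick and bars for the mean and SD of 3 mice. The dashed line is the middle of the array medians of 1210 olfactory and vomeronasal receptor clusters, and the LPS and PBS mice are widest apart for Ifi207.

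Ifi207 had the largest log2 fold change in the family, although the arrays did not separate it from the cluster shared by Ifi204 and Ifi211. Ifi207 encodes a pyrin and HIN domain protein of the p200 group. Its log2 expression was 8.63, 8.95 and 8.77 in LPS replicates 1, 2 and 3, against 6.56, 6.54 and 6.34 in PBS replicates 1, 2 and 3. The lowest LPS-treated mouse was 2.07 above the highest control, and within each group the mice lay close together. The means were 8.78 ± 0.16 after LPS and 6.48 ± 0.12 after vehicle (SD, n = 3 each), a log2 fold change of 2.30 (standard error 0.11, 95% confidence interval 2.04 to 2.56, adjusted p = 0.0011 from limma). This is a 4.93-fold increase (4.11 to 5.91) and the sixth largest of all clusters. In the controls Ifi207 was close to background. Receptor genes of the olfactory and vomeronasal epithelia, which the brain barely expresses, had array medians of 5.67 to 5.81, and 95% of their 1210 clusters had a mean under 6.52, slightly above the mean of Ifi207 after vehicle. The size of the fold change therefore depends on the background, and with 32 added on the linear scale the log2 fold change was 1.96 (adjusted p = 0.0012 from limma). The call held without any single array (adjusted p up to 0.0156) and with LPS replicates 1 and 2 both left out (adjusted p = 0.0264, where 1 LPS array is assumed to vary like the controls). It ended under the t test named in the study's methods (adjusted p = 0.0621), which called none of the 5 member clusters and 5 clusters in all, although 4 of the 5 member clusters had an unadjusted p under 0.05 in it. Over all 35556 clusters, 4214 had an unadjusted p under 0.05 in that test.

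The cluster shared by Ifi204 and Ifi211 was the next most induced. Ifi204 encodes p204, which is regarded as the mouse counterpart of the human DNA sensor IFI16, and Ifi211 was named Mnda after the human myeloid cell nuclear differentiation antigen. Log2 expression was 8.78, 8.71 and 8.69 in LPS replicates 1, 2 and 3, against 7.02, 6.55 and 7.10 in PBS replicates 1, 2 and 3. The LPS-treated mice were almost level, and the controls were spread more widely, with PBS replicate 2 lowest. The means were 8.72 ± 0.05 after LPS and 6.89 ± 0.30 after vehicle (SD, n = 3 each), a log2 fold change of 1.84 (standard error 0.15, 95% confidence interval 1.48 to 2.19, adjusted p = 0.0045 from limma). This is a 3.57-fold increase for the pair of genes together, and the share of each is not given by the data. The call held without any single array (adjusted p up to 0.0304) and ended with LPS replicates 1 and 2 both left out (adjusted p = 0.0919).

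Aim2, the cytosolic DNA sensor of the inflammasome, was already above background in all controls and had the smallest log2 fold change of the 5 member clusters. Its log2 expression was 8.10, 8.11 and 8.05 in LPS replicates 1, 2 and 3, against 7.37, 7.62 and 7.30 in PBS replicates 1, 2 and 3. The groups did not overlap, with a gap of 0.44 between the lowest LPS-treated mouse and the highest control. The means were 8.09 ± 0.03 after LPS and 7.43 ± 0.17 after vehicle (SD, n = 3 each), a log2 fold change of 0.66 (standard error 0.10, 95% confidence interval 0.42 to 0.90) or a 1.58-fold increase. Its adjusted p of 0.0477 from limma was close to the threshold. The call ended with eBayes fitted with an intensity trend, after quantile normalization or median centring (adjusted p = 0.0630, 0.0768 and 0.105 from limma), and on leaving out any 1 array except LPS replicate 3 (adjusted p 0.0614 to 0.211). Without LPS replicate 3 the adjusted p was 0.0190, and with LPS replicates 1 and 2 both left out it was 0.297.

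Ifi203, which encodes the nuclear protein p203, had log2 values of 7.52, 7.81 and 8.01 in LPS replicates 1, 2 and 3, against 7.13, 6.07 and 6.87 in PBS replicates 1, 2 and 3. All LPS-treated mice were above all controls, but PBS replicate 2 lay about 1 log2 unit below PBS replicate 1. The means were 7.78 ± 0.25 after LPS and 6.69 ± 0.55 after vehicle (SD, n = 3 each), a log2 fold change of 1.09 with a 95% confidence interval of 0.43 to 1.74. The difference did not pass the test (adjusted p = 0.187 from limma, unadjusted p = 0.0058). Leaving out PBS replicate 2, the log2 fold change was 0.78 (adjusted p = 0.318). With arrays weighted by their quality the gene passed (log2 fold change 0.81, adjusted p = 0.0348).

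Ifi205, whose product is also known as D3 and was studied in activated macrophages, stayed near background in most mice. Its log2 expression was 6.08, 6.17 and 6.88 in LPS replicates 1, 2 and 3, against 5.98, 5.70 and 5.40 in PBS replicates 1, 2 and 3. Only LPS replicate 3 stood clearly above the controls, and LPS replicate 1 was 0.10 above PBS replicate 1. The controls lay around the receptor medians of 5.67 to 5.81, so that the gene was not above background in them. The log2 fold change was 0.69 (95% confidence interval 0.11 to 1.26) and did not pass the test (adjusted p = 0.296 from limma, unadjusted p = 0.0264). It was 0.43 without LPS replicate 3 (adjusted p = 0.161) and 1.19 with LPS replicates 1 and 2 both left out (adjusted p = 0.197).

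The members were also compared in how far they moved. In all 10 pairs of member clusters the difference of their log2 values was taken in each mouse and compared between LPS-treated mice and controls. The controls of Ifi205 and Ifi207 were at or close to background, where a log2 difference depends on the background left in the signal. With 32 added on the linear scale the log2 fold change of Ifi205 was 0.46 and that of Ifi207 was 1.96, so the differences that involve these genes are not exact. In 6 pairs the 3 LPS values lay above the 3 PBS values. These were Ifi207 against Aim2, Ifi205 and Ifi203, where the log2 fold changes differed by 1.64, 1.62 and 1.21, and the shared Ifi204 and Ifi211 cluster against Aim2, Ifi205 and Ifi203, with differences of 1.18, 1.15 and 0.75. Each of these had an exact two-sided permutation p = 0.1, the smallest possible, and p = 0.167 after Benjamini-Hochberg adjustment over the 10 pairs. Ifi207 and the shared cluster differed by 0.47, with overlap (exact permutation p = 0.2), and the 3 pairs among Ifi203, Ifi205 and Aim2 differed by 0.03 to 0.43, also with overlap. No pair passed a threshold of 0.05, which this number of mice does not allow.

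**Figure D2:**
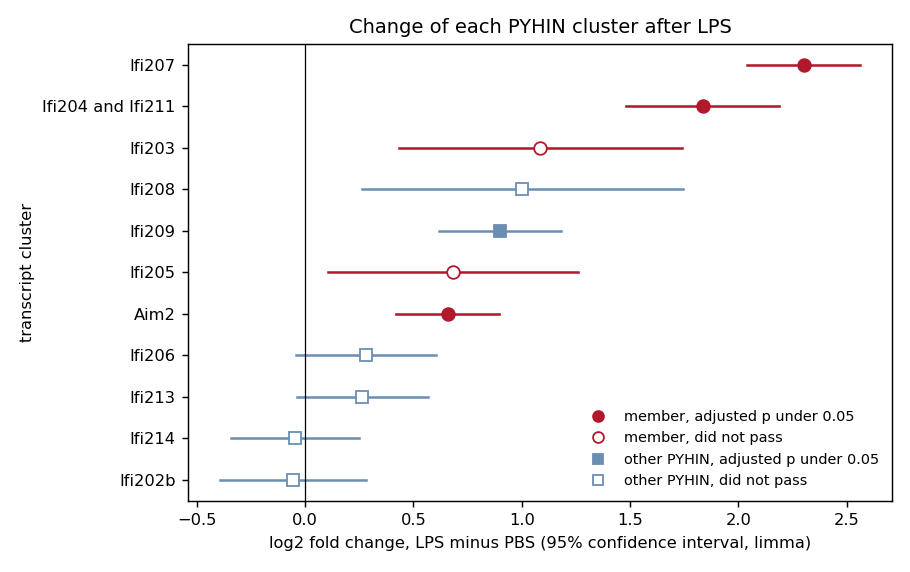
Log2 fold change (LPS minus PBS) with its 95% confidence interval from limma for each PYHIN cluster, circles for members and squares for other family genes, filled where the adjusted p was under 0.05. The intervals of all 5 members lie above 0, and those of Ifi206, Ifi213, Ifi214 and Ifi202b include 0.

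The other PYHIN genes on the array were examined with the same fit. Of 6 such genes, each named alone by 1 cluster, only Ifi209 passed, being higher in LPS-treated mice. Ifi209, also known as Pyhin1, had log2 values of 6.13, 6.22 and 6.53 in LPS replicates 1, 2 and 3, against 5.47, 5.31 and 5.41 in PBS replicates 1, 2 and 3. The groups were apart by 0.66, and all controls were below the receptor medians of their arrays. Its log2 fold change was 0.90 (standard error 0.12, adjusted p = 0.0275 from limma), and the call ended after quantile normalization or median centring (adjusted p = 0.0720 and 0.0889), and without LPS replicate 1 or 2 or any PBS replicate (adjusted p up to 0.161).

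Ifi208, also known as Pydc3, had a similar difference with a wide spread. Its log2 values were 6.49, 6.08 and 6.41 in LPS replicates 1, 2 and 3, against 6.08, 4.89 and 5.0 in PBS replicates 1, 2 and 3. PBS replicate 1 lay 0.0057 below LPS replicate 2, and the log2 fold change of 1.00 did not pass (adjusted p = 0.260 from limma). Without PBS replicate 1 it was 1.38 and passed (adjusted p = 0.0454). For Ifi206 and Ifi213 the log2 fold change was 0.28 and 0.27 (adjusted p = 0.397 and 0.393), with overlap between the groups for Ifi206. Ifi214 and Ifi202b, at -0.05 and -0.06 on the log2 scale (adjusted p = 0.894 and 0.884), overlapped between the groups. Ifi202b encodes a protein with HIN domains and no pyrin domain, and its expression is known to be very low in C57BL/6 mice. The controls of Ifi206, Ifi208, Ifi209 and Ifi213 had means below the receptor median, and those of Ifi214 and Ifi202b means of 5.99 and 5.81. At such levels a fall can hardly be seen and a rise can be understated, although Ifi209 was called higher from there. The 95% confidence intervals of Ifi214 and Ifi202b reached up to 0.25 and 0.28. The median log2 fold change of the 6 genes was 0.27. The letters GAAATCGAAA were present in promoters of genes on both sides of the threshold, with Ifi207 at one end and Ifi214 at the other, and Ifi209 and Aim2 passed the test without a match in the promoter read. The calls of Ifi209 and Aim2 ended under several alternatives, and only 300 bases around each listed start were read. Whether a match bears on the change after LPS was not tested.

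Genes that act with AIM2 were then considered. Of 15 genes of the AIM2 inflammasome, its parallel sensors and pyroptosis, Pycard, Casp8 and Casp4 passed, each higher in LPS-treated mice, and 12 did not. The median log2 fold change was 0.14. Pycard, which encodes the adaptor ASC, had log2 values of 7.20, 7.75 and 7.58 in LPS replicates 1, 2 and 3, against 6.53, 5.98 and 6.18 in PBS replicates 1, 2 and 3. The groups did not overlap, and the log2 fold change was 1.28 (95% confidence interval 0.84 to 1.72, adjusted p = 0.0394 from limma). Casp8, which encodes an initiator caspase of cell death that ASC can also bind, and Casp4, which encodes mouse caspase-11, the intracellular receptor for LPS, increased by 1.24 and 0.77 on the log2 scale (adjusted p = 0.0098 and 0.0097), although the controls of Casp4, with a mean of 5.38, were below the receptor medians. Casp1, the effector protease of the AIM2 inflammasome, had log2 values of 5.85, 6.14 and 6.44 in LPS replicates 1, 2 and 3, against 6.13, 5.98 and 5.77 in PBS replicates 1, 2 and 3. These overlapped, with a log2 fold change of 0.18 and a 95% confidence interval of -0.22 to 0.58 (adjusted p = 0.649). Its substrates Gsdmd, Il1b and Il18 differed by 0.21, 0.36 and 0.10 on the log2 scale without passing (adjusted p = 0.511, 0.362 and 0.666). Il18 was well above the receptor medians in the controls, with a mean of 9.21, while Gsdmd and Il1b were near or below them. The call of Pycard ended after quantile normalization or median centring (adjusted p = 0.0641 and 0.0521) and on leaving out any 1 array except LPS replicate 3 (adjusted p up to 0.183). That of Casp8 ended without any PBS replicate or without LPS replicate 2 (adjusted p up to 0.0793), and that of Casp4 after median centring (adjusted p = 0.0521), without any PBS replicate and without LPS replicate 1 (adjusted p up to 0.0721).

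Among 25 measured genes of cytosolic DNA sensing and interferon signalling, Irf7, Zbp1, Sting1 and Stat2 passed, each higher in LPS-treated mice, and 21 did not, with a median log2 fold change of 0.13. Sting1, which encodes the adaptor of the cGAS pathway, had log2 values of 7.72, 7.72 and 7.79 in LPS replicates 1, 2 and 3, against 6.94, 6.99 and 6.90 in PBS replicates 1, 2 and 3. The spread in each group was small against the log2 fold change of 0.80 (95% confidence interval 0.63 to 0.97, adjusted p = 0.0066 from limma). Zbp1, which encodes a sensor of Z-form nucleic acids, and Stat2, a subunit of ISGF3, increased by 0.88 and 0.69 on the log2 scale (adjusted p = 0.0255 and 0.0141). Irf9, the DNA-binding subunit of ISGF3, narrowly missed the threshold (log2 fold change 0.92, adjusted p = 0.0555). Cgas, which encodes the other main sensor of cytosolic DNA, had a log2 fold change of 0.16 with a 95% confidence interval of -0.07 to 0.39 (adjusted p = 0.482). Ifnb1, the gene for interferon beta, was at -0.02 (adjusted p = 0.959), and both genes were below the receptor median in the controls. Irf7, the interferon regulatory factor that amplifies interferon production, increased by 2.60 on the log2 scale (adjusted p = 0.0015), although its controls were below the receptor median, and its call held without any single array (adjusted p up to 0.0181). The call of Sting1 ended without PBS replicate 1 or 3 (adjusted p up to 0.0545) and that of Zbp1 after quantile normalization or median centring (adjusted p = 0.0575 and 0.0753), without LPS replicate 2 and without any PBS replicate (adjusted p up to 0.133). Stat2 did not pass on leaving out any 1 array except LPS replicate 3 (adjusted p up to 0.0950).

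**Figure D3:**
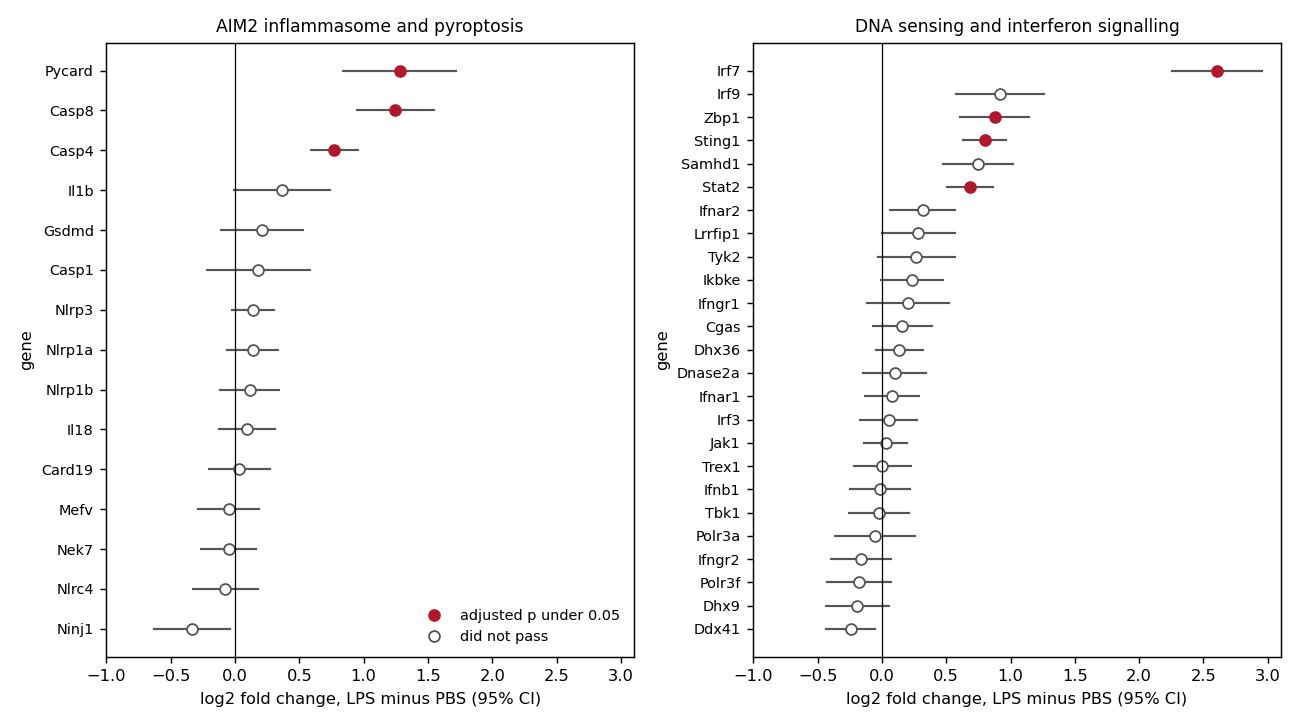
Log2 fold change (LPS minus PBS) with its 95% confidence interval from limma for 15 genes of the AIM2 inflammasome and pyroptosis (left) and 25 genes of DNA sensing and interferon signalling (right), filled red where the adjusted p was under 0.05. Pycard, Casp8 and Casp4 pass on the left, and Irf7, Zbp1, Sting1 and Stat2 on the right.

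The genes whose profile over the 6 arrays was most like the mean of the 4 members named alone were found among 21779 clusters that name 1 other gene. This mean, with each member centred on its own mean, was 0.42, 0.59 and 0.76 in LPS replicates 1, 2 and 3, against -0.40, -0.68 and -0.69 in PBS replicates 1, 2 and 3. The order of the 3 LPS-treated mice in this mean is that of Ifi203 and Ifi205, which did not pass, while Ifi207 was highest in LPS replicate 2 and Aim2 lowest in LPS replicate 3. By the root mean square difference on the log2 scale over the 6 arrays, the closest were Casp8 (0.07), Irgm1, an interferon-inducible GTPase (0.07), Milr1, an immunoglobulin-like receptor of mast cells (0.09), Vwf, von Willebrand factor (0.10), and Tek, the angiopoietin receptor of endothelial cells (0.11). This is a description over 6 arrays in 2 groups, with no test.

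Markers of the cells that whole brain holds were read on the same arrays. None of 8 neuron, 7 astrocyte, 6 oligodendrocyte and 9 microglia markers lay below the receptor median in the controls, and none of them passed limma, with 0, 1, 2 and 2 at an unadjusted p under 0.05. Of these, the astrocyte and microglia markers were higher after LPS and the oligodendrocyte markers lower. Over all 35556 clusters, 2733 were higher and 2341 lower at an unadjusted p under 0.05 in limma. Microglia, a brain cell type in which PYHIN genes can be induced, had a median log2 fold change of 0.03 over their markers, and their summed linear signal was 2793 to 3485 in LPS-treated mice and 2591 to 2874 in controls. Of the 9 microglia markers, 7 had a positive log2 fold change. Cx3cr1 (0.47) and Csf1r (0.30) had all LPS-treated mice above all controls. Sall1 (-0.21) and Gpr34 (-0.24) were lower after LPS, with overlap between the groups. These markers are a short list, and the study's own list of higher genes also holds Itgam, Emr1 and Msr1, the macrophage scavenger receptor. That list was selected from these same arrays by the difference after LPS, so the direction of its genes was fixed by the selection. The part of microglia and macrophages in the PYHIN result was not tested. Endothelial markers moved with the members. All 9 had the LPS-treated mice above the controls and 7 passed, with a median log2 fold change of 0.97 and a summed signal of 5240 to 5666 in LPS-treated mice and 2533 to 3163 in controls. Their part in the PYHIN result was not tested. Of 5 blood monocyte and 10 neutrophil markers 1 each was higher, Fn1 and Csf3r, and none of 6 border macrophage, 8 T and NK cell and 5 B cell markers and none of 3 red cell markers passed limma, with 3, 2, 1 and 1 at an unadjusted p under 0.05. Of the latter, the red cell marker was lower after LPS and the others were higher. The median log2 fold change was 0.18 over the monocyte markers and 0.002 over the neutrophil markers. Ccr2 (-0.29) was the lowest of the former and Ngp (-0.36) of the latter, each with overlap between the groups. The summed signal of monocyte markers, most of it from Fn1, was 1473 to 1657 after LPS and 948 to 1010 after vehicle. That of neutrophil markers was 609 to 621 after LPS and 534 to 614 after vehicle. The part of monocytes and neutrophils in the PYHIN result was not tested. The first principal component of all clusters held 54.5% of the variance. On it LPS replicate 3 (15.2) lay next to the controls (16.1 to 25.2), and LPS replicates 1 and 2 lay apart (-32.9 and -48.3). The array medians of LPS replicates 1 and 2 were 7.09 and 7.11, against 6.96 in LPS replicate 3 and 6.95 to 6.98 in the controls. Over the members, the mean of LPS replicates 1 and 2 was above LPS replicate 3 by 0.02 for Ifi207, 0.05 for the shared cluster and 0.05 for Aim2. It was below LPS replicate 3, with differences of -0.35 and -0.76, for Ifi203 and Ifi205.

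**Figure D4:**
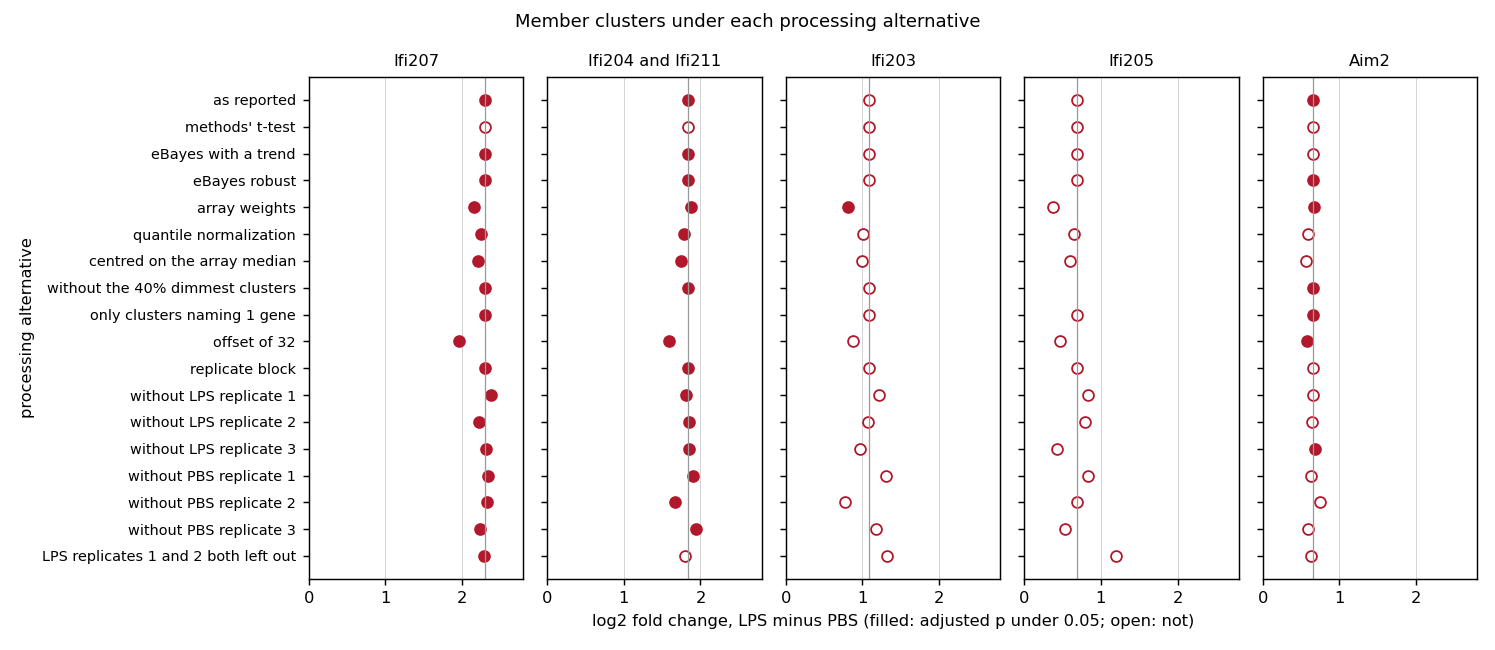
Log2 fold change (LPS minus PBS) of the 5 member clusters under each processing alternative, filled where the adjusted p was under 0.05 and open where not, with a grey line at the reported value and no symbol where a cluster was not tested. The calls of Ifi207 and of the shared cluster end under the methods' t-test, that of the shared cluster also with LPS replicates 1 and 2 left out, and the symbols of all members lie above 0.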

How the data were processed

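Arrays of whole brain RNA from 3 mice given LPS and 3 given vehicle were compared. The values were the log2 expression values deposited by the authors after RMA, a background correction, a quantile normalization and a summary over probes. They are from the RMA with GC adjustment (Partek), not from the RMA 16 (GeneSpring) that the methods also name, as set against the supplementary gene lists of both. Scanner files were not used, and precision is limited by the number of arrays. Gene names are those of the platform annotation, brought up to GRCm38.p6 by gene identifier. Two-sided tests were made with limma 3.58.1 (lmFit, eBayes) under R 4.3.3, adjusted by Benjamini-Hochberg over 35556 clusters, and the procedure was tested on simulated data. The unpaired t test named in the methods is called the methods' t-test.

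All member clusters, all other family genes and all passing genes of the pathway lists are named, with Pycard, Casp1, Il1b, Il18, Gsdmd, Cgas, Sting1, Zbp1, Irf7 and Ifnb1 whatever their values, the 5 most similar profiles, and Irf9, Fn1, Csf3r, Cx3cr1 and Csf1r, chosen after their values were seen. The markers Sall1, Gpr34, Ccr2 and Ngp were also chosen after their values were seen. Itgam, Emr1 and Msr1 were taken from the study's list of higher genes. A gene named alone by several clusters was represented by the brightest. Members and lists were chosen with earlier results of these data known. The alternatives were other variance models, array weights, normalizations, filters, an offset, the replicate number as a block and each array left out. Leaving out LPS replicates 1 and 2 together was chosen after the data were seen.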

Additional observations from a re-analysis of the deposited data

How the results depend on the processing

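All 5 member clusters kept a positive log2 fold change under every alternative run. Under the methods' t-test no member cluster passed, although 4 of 5 had an unadjusted p under 0.05, and the adjusted p was 0.0621 for Ifi207 (log2 fold change 2.30), 0.108 for the shared Ifi204 and Ifi211 cluster (1.84) and 0.194 for Aim2 (0.66). That test called 5 clusters in all, and 0 of the other PYHIN genes, 0 of the inflammasome genes and 0 of the DNA sensing genes, of which 1, 4 and 8 had an unadjusted p under 0.05. In the same test 4214 of all 35556 clusters had an unadjusted p under 0.05. The study's own lists of higher genes do hold Ifi204 and AI607873, the latter with the fold change and p of Ifi207. Aim2 also lost its call with an intensity trend (0.66), after quantile normalization (0.59), centring on the array median (0.57), with the replicate block (0.66) and with LPS replicates 1 and 2 both left out (0.62), where the shared cluster also did not pass (1.80) and 1 member cluster was called. With single arrays left out, Aim2 ranged over 0.59 to 0.75, and 2 to 3 member clusters passed. Array weights gave Ifi203 a call (0.81) but also called 8323 clusters, of which 4751 were higher and 3572 lower, against 232 and 22 without weights. Under them 2 other PYHIN genes, 5 inflammasome genes and 11 DNA sensing genes passed.

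Over all clusters 254 passed, against 151 after median centring, 80 with the replicate block, 420 at an adjusted p under 0.1 and 74 to 3792 with single arrays left out, the highest without LPS replicate 3. The other PYHIN genes that passed numbered 0 after quantile normalization, after median centring, without the 40% dimmest clusters (where Ifi209 was not tested) and with the replicate block, and 0 to 1 with single arrays left out. Inflammasome genes that passed numbered 1 after median centring, 0 with the replicate block and 0 to 4 with single arrays left out. DNA sensing genes numbered 1 with the block and 1 to 7 with single arrays left out. The cause of these shifts was not tested. The labels number biological replicates and do not say whether same-numbered mice were paired. Over all clusters the deviations of same-numbered arrays from their group means correlated at 0.09, -0.05 and 0.10 for replicates 1, 2 and 3. Those of differently numbered arrays correlated at -0.17 to 0.15. With 3 arrays per group these values cannot settle whether arrays were handled in pairs. With the block 2 member clusters passed, Ifi207 (adjusted p = 0.0223) and the shared cluster (adjusted p = 0.0316). In clusters near the receptor medians, such as Ifi205 and most other PYHIN genes, a fall can hardly be seen and a rise can be understated. Irf7 and Ifi209 were called higher from controls below the receptor median, so such a level does not in itself prevent a call.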
